A study of Canis lupus familiaris with 62 samples.

Results

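Canine chromosomes 9 and 21 are described here by the RNA of their genes with more than 1 exon and a span under 500 kb. The table of counts holds 30951 genes, and 1664 of them met these conditions, 1214 on chromosome 9 and 450 on chromosome 21 (CanFam3.1). The pair was chosen because the RNA levels of the chromosomes ran against each other over the tumours, so the size of that opposition is a description and carries no test.

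The libraries came from 62 canine meningiomas kept as formalin-fixed, paraffin-embedded tissue, 1 library of total RNA per tumour. By their treatment label 13 dogs had surgery (Sx), 9 had surgery with radiotherapy (SxRT), 3 had radiotherapy (RT), 7 had a steroid, alone or (in 6) together with an anti-epileptic drug, 3 took only an anti-epileptic drug and 27 were untreated. Of the surgical dogs 7 in the Sx group and 7 in the SxRT group are labelled as lost to follow-up. All dogs had a spontaneous tumour, 31 were female and 31 male, and 7 were intact, but the labels used here do not say whether tissue was taken before or after treatment. The labels used here do not give the age of a dog.

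Meningiomas are tumours of the membranes around the brain. In tumour cells whole chromosomes or long stretches of them can be gained or lost, and the RNA of many genes of such a stretch then tends to shift in 1 direction. RNA counts measure the sum of such shifts and of the ordinary control of each gene, and DNA copies were not measured in these samples. In bulk tissue fewer cells of a type and less RNA per cell cannot be told apart.

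Total counts ran from 1967061 to 12063982 per library, with a median of 4190135. Mitochondrial genes took between 3.00% and 14.9% of the counts in the 5 libraries that carry most of the opposition and between 5.11% and 46.7% in the others. The identifiers have no gene names in the table or in the name table at hand, so genes are given by identifier and position, their functions are not stated, and markers of meningeal or other cell types were not checked. No genome of this build was at hand, so no sequence is shown.

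A chromosome score was computed for each library. Each gene's log2 CPM (its count scaled to the library's total) was set against that gene's mean over the 62 libraries, and these deviations were averaged over the genes of a chromosome whose mean log2 CPM reached 2. The median of the 38 autosomal averages of a library was then subtracted. Of the members, 1163 genes of chromosome 9 and 403 of chromosome 21 had at least 1 count, and 699 and 206 of them entered the scores, among 10977 autosomal genes of the same kind. The genes in the scores were alike in level and exon length, with a median log2 CPM of 4.70 on chromosome 9 and 4.57 on chromosome 21 and a median summed exon length of 2256 and 2221 bases. They differed in span, with medians of 19918 bases on chromosome 9 and 40928 bases on chromosome 21.

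Over the 62 libraries the chromosome 9 score ran from -0.24 to 0.54 with a median of -0.05 and an SD of 0.16. The chromosome 21 score ran from -0.39 to 0.18 with a median of 0.02 and an SD of 0.12. The median standard error of a score over its genes was 0.03 for chromosome 9 and 0.07 for chromosome 21, which covers the spread between genes and not between dogs. Pearson's r of the scores over the 62 libraries was -0.704 and Spearman's rho -0.503. This r was the lowest of all pairs of the 38 autosomes. The next lowest was -0.557, the median pair had 0.009 and the highest pair had 0.787. All scores share libraries and the library median that was subtracted. Without that subtraction r was -0.045, against a median of 0.267 over all pairs, and the library median itself ran from -0.32 to 0.15.

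**Figure D1:**
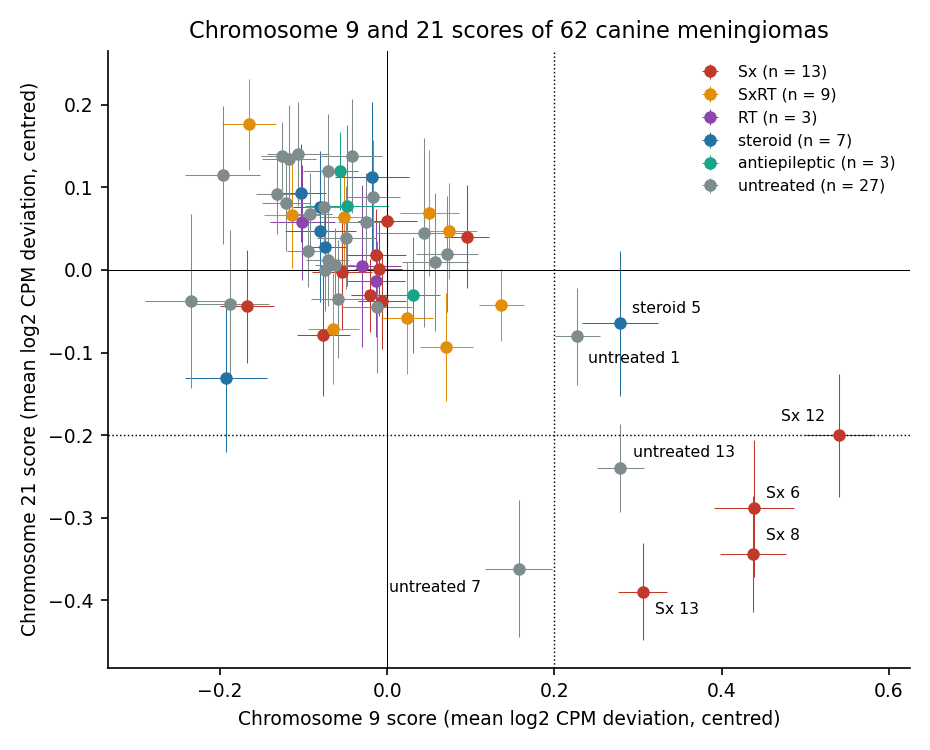
Chromosome 21 score against chromosome 9 score (both in log2 CPM deviation, with the library median subtracted) for 62 libraries, coloured by treatment label. Bars are the standard error over genes and dotted lines mark 0.2 and -0.2. The 5 libraries right of and below both dotted lines are Sx 6, 8, 12 and 13 and untreated 13, and most others lie close to 0 on both axes.

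In 42 of the 62 libraries the scores had opposite signs. Over all autosome pairs this number had a median of 32 and reached 51, and 8.82% of the pairs had at least 42. Chromosome 9 was above and chromosome 21 below 0 in 12 libraries, and the reverse held in 30. Both were above 0 in 7 libraries and both below in 13. The libraries with the reverse pattern stayed within 0.2 of 0 on both scores, and far values on both scores together were all on 1 side. Chromosome 9 was below -0.2 in 1 library, untreated 4, with -0.24 and a chromosome 21 score of -0.04. Chromosome 9 above 0.2 together with chromosome 21 below -0.2 was found in 5 libraries, and chromosome 9 below -0.2 together with chromosome 21 above 0.2 in 0. For each of the 1406 ordered pairs of autosomes the same count had a median of 0 and a highest value of 7, and 0.498% of the pairs had at least 5. With a threshold of 0.1 there were 6 libraries with chromosome 9 high and chromosome 21 low and 5 with the reverse. With 0.3 there were 2 and 0. The reverse pattern was largest in SxRT 1, with -0.17 for chromosome 9 and 0.18 for chromosome 21.

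The 5 libraries with the far values are given with their standard errors over genes. Sx 6 had a chromosome 9 score of 0.44 ± 0.05 and a chromosome 21 score of -0.29 ± 0.08. In Sx 8 chromosome 9 stood at 0.44 ± 0.04 and chromosome 21 at -0.34 ± 0.07. In Sx 12 chromosome 9 stood at 0.54 ± 0.04, the highest of all 62, and chromosome 21 at -0.2003 ± 0.07, just past the threshold. No other library was as high on chromosome 9 as any of these 3. Sx 13 had 0.31 ± 0.03 on chromosome 9 and -0.39 ± 0.06 on chromosome 21, the lowest chromosome 21 score of all. Untreated 13 had 0.28 ± 0.03 and -0.24 ± 0.05. These scores chose the libraries, so they are not evidence of their own size. Before the library median was subtracted, chromosome 9 still stood between 0.29 and 0.41 and chromosome 21 between -0.43 and -0.14 in these 5.

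Just outside the thresholds were untreated 7 with 0.16 on chromosome 9 and -0.36 on chromosome 21, and 2 libraries with chromosome 9 above 0.2 but chromosome 21 close to 0. These were steroid 5, with 0.28 and -0.06, and untreated 1, with 0.23 and -0.08. In all 7 libraries lay above 0.2 on chromosome 9 and 6 below -0.2 on chromosome 21. The next chromosome 21 score was -0.13 in steroid 2, where chromosome 9 was low as well, at -0.19.

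Chromosome 9 was not the only chromosome to stand apart in the 5 libraries. Between 10 and 21 of the 38 autosomes lay beyond 0.2 in either direction there, with a median of 15, against a median of 3 and a range from 0 to 25 in the other 57 libraries. Within its own library chromosome 9 was the highest autosome in Sx 12, the next to highest in Sx 6, Sx 8 and untreated 13 and rank 5 in Sx 13. Chromosome 21 was rank 2 from the bottom in Sx 13, rank 3 in untreated 13, rank 4 in Sx 6 and Sx 8 and rank 8 in Sx 12. The autosome at the top was another one in each of the libraries where chromosome 9 was not, namely 37 in Sx 6, 13 in Sx 8, 11 in Sx 13 and 17 in untreated 13. Likewise the lowest autosome was 4 in Sx 6, 36 in Sx 8, 32 in Sx 12, 28 in Sx 13 and 8 in untreated 13.

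Other autosomes shared some of this course over the 62 libraries. Chromosome 9 had its highest r with chromosomes 26 (0.501) and 24 (0.375) and, chromosome 21 aside, its lowest with chromosome 32 (-0.395). Chromosome 21 had its lowest r, chromosome 9 aside, with chromosomes 11 (-0.452) and 17 (-0.443) and its highest with chromosomes 15 (0.332) and 32 (0.331). The first principal component of the libraries, which held 27.0% of the variance, had an r of -0.135 with the chromosome 9 score and 0.173 with the chromosome 21 score. With log total counts r was 0.339 for chromosome 9 and -0.159 for chromosome 21, and with the mitochondrial share 0.018 and 0.026. The part of depth in the scores was not tested.

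The shift of the 5 libraries was spread over many genes. For the shares within a library, a gene was counted as above its own mean when its deviation exceeded the library median. In Sx 8, 79.0% of the 699 chromosome 9 genes lay above their own mean over libraries and 36.9% of the 206 chromosome 21 genes did, against 56.5% of the 10977 autosomal genes. In Sx 13 the shares were 77.7% on chromosome 9 and 25.7% on chromosome 21, against 54.2% of autosomal genes. Sx 12 had 75.3% and 43.2%, against 55.6%, and Sx 6 had 74.8% and 42.7%, against 56.2%. Untreated 13 had 67.95% and 36.4%, against 45.4%. On chromosome 9, 235 genes (33.6%) lay above their mean in all 5 libraries, against 6.91% of the 10072 genes of the other 36 autosomes. Below their mean in all 5 were 34 chromosome 21 genes (16.5%), against 4.33% of the genes of the other autosomes. The libraries were chosen by the means of these same genes.

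Each chromosome was divided by position into 6 parts of equal gene number, with 116 or 117 genes per part on chromosome 9 and 34 or 35 on chromosome 21. All 6 parts of chromosome 9 had a negative r with the chromosome 21 score. It was most negative in part 1, from 73215 to 8278172, with -0.650, followed by part 5, from 43200371 to 50322127, with -0.577. Part 2 had -0.538, part 6 -0.525, part 4 -0.458 and part 3 -0.422. In each of the 6 parts all 5 libraries lay above 0. At the scale of these 6 parts chromosome 9 ran against chromosome 21 along its length, while shorter stretches differed, as given below for windows. The parts are made of the genes whose means chose the pair.

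In part 1 of chromosome 9 the part score was 0.33 in Sx 6, 0.65 in Sx 8, 0.86 in Sx 12, 0.35 in Sx 13 and 0.37 in untreated 13, against a median of -0.08 in the other libraries. In part 5 it was 0.45 in Sx 6, 0.54 in Sx 8, 0.67 in Sx 12, 0.38 in Sx 13 and 0.29 in untreated 13, against a median of -0.05. The middle parts were lower in some of the libraries. Sx 12 had 0.09 in part 4 and Sx 13 had 0.09 in part 3, with median standard errors of a part over its genes of 0.08 in both parts.

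Chromosome 21 was less even. Part 5, from 32334015 to 39645585, had an r of -0.674 with the chromosome 9 score, lower than any part of chromosome 9 had with chromosome 21, and part 1, from 602378 to 13820314, had -0.506. Part 2 had -0.353 and part 6 -0.338. Parts 3 and 4, which lie between 23991469 and 32319729, had only -0.147 and -0.141. In part 5 the part score was -0.56 in Sx 6, -0.75 in Sx 8, -0.15 in Sx 12, -0.58 in Sx 13 and -0.59 in untreated 13, against a median of 0.06 in the others. Sx 12 was the exception in part 5 and was low in part 1, with -0.58, while Sx 6 had 0.11 there. The parts of chromosome 21 had 34 or 35 genes each, and their median standard errors ran from 0.13 in part 4 to 0.20 in part 6.

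**Figure D2:**
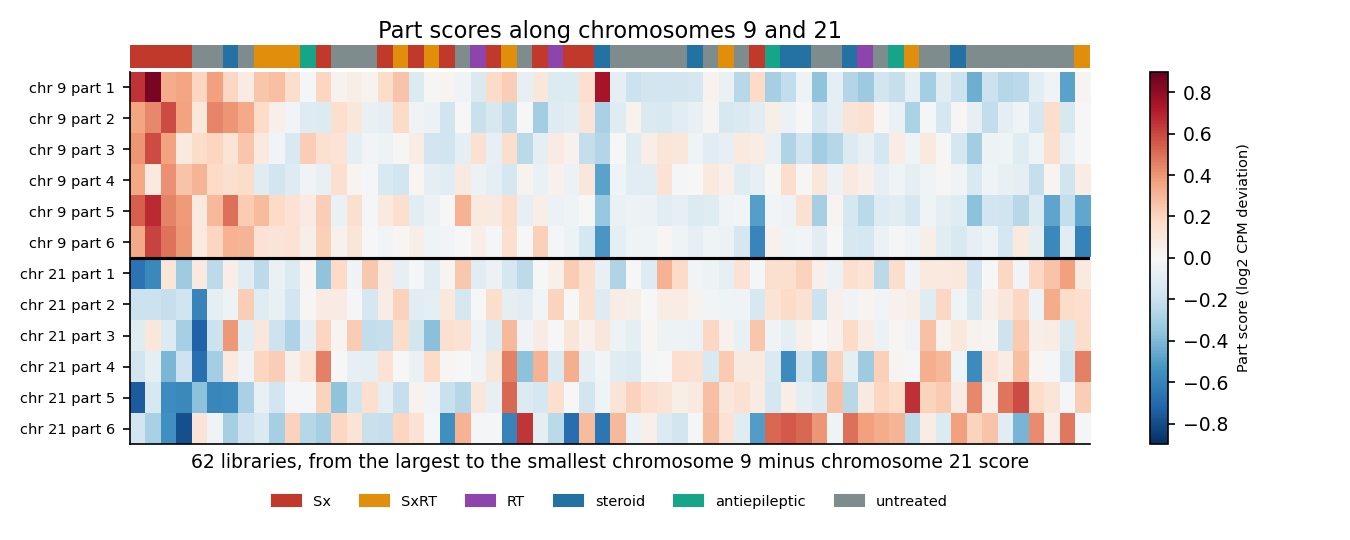
Part scores (log2 CPM deviation, with the library median subtracted) of the 6 parts of chromosome 9, above the black line, and of chromosome 21, below it, in 62 libraries ordered by the difference of their chromosome scores. The strip on top gives the treatment label. At the left the parts of chromosome 9 are red and most parts of chromosome 21 blue. Further right parts 5 and 6 of chromosome 9 are blue together in 3 libraries (untreated 23, SxRT 1 and Sx 11), and steroid 2 has a dark red part 1 above blue parts 2 to 6.

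Some libraries outside the 5 had only part of chromosome 9 apart from the rest. Parts 5 and 6, from 43200371 to 61042520, stood at -0.50 and -0.59 in Sx 11, at -0.47 and -0.61 in SxRT 1 and at -0.48 and -0.58 in untreated 23, with parts 1 to 4 between -0.09 and 0.17 in all 3. Chromosome 21 had no common course in these 3, and its score was -0.04 in Sx 11, 0.18 in SxRT 1 and 0.14 in untreated 23. In steroid 2 part 1 of chromosome 9 stood at 0.74 and parts 2 to 6 between -0.52 and -0.27.

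The parts of chromosome 9 ran together, with a positive r in all 15 pairs and a median r of 0.495. Those of chromosome 21 did so less, with 3 of 15 pairs negative and a median of 0.230. Across the chromosomes 33 of 36 pairs of parts were negative, or 91.7%, with a median of -0.269 and the lowest value, -0.674, between part 2 of chromosome 9 and part 5 of chromosome 21. Against parts of the other 36 autosomes 53.2% of the pairs with chromosome 9 parts and 50.5% of the pairs with chromosome 21 parts were negative. The pair was chosen on the means of the same genes, so this excess of negative part pairs is part of that choice. Without the 5 libraries 23 of 36 pairs were negative, with a median of -0.081, and r of the whole chromosomes was -0.395. Without the 5 libraries all 6 pairs with part 5 of chromosome 21 stayed negative, between -0.513 and -0.072. Without the subtraction of the library median 15 of 36 pairs were negative.

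**Figure D3:**
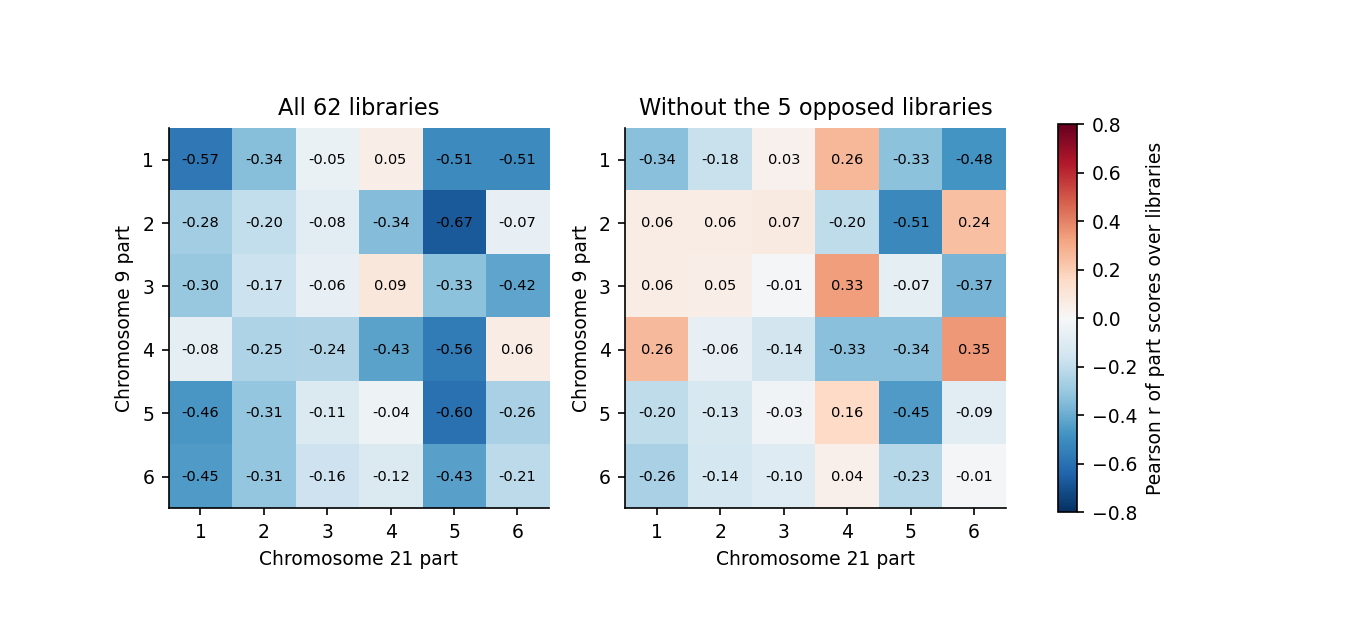
Pearson r over libraries between the part scores of chromosome 9 (rows) and chromosome 21 (columns), with all 62 libraries on the left and without the 5 libraries on the right. With all libraries 33 of 36 cells are below 0, and without the 5 libraries 23 are, with column 5 below 0 in every row of both panels.

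Windows of 2 Mb with at least 5 genes were less even than the parts. On chromosome 9, 28 of 29 windows had a negative r with the chromosome 21 score. The lowest, -0.633, was the window of 41 genes from 73215 to 1807690, whose median score was 0.49 in the 5 libraries and -0.08 in the others. Some windows were hardly raised in the 5 libraries. The window from 22000847 to 23972231 had a median of 0.03 in them, with an r of -0.163. From 32015616 to 33935412 the median was -0.04, with an r of -0.073. From 35980544 to 37936475 it was 0.07, with an r of 0.053, the only positive one. On chromosome 21, 12 of 14 windows were negative. The lowest, -0.600, was the window of 22 genes from 32044841 to 33977653, with a median of -0.51 in the 5 libraries and 0.08 in the others. The lowest median in the 5 libraries, -0.66, was that of the 10 genes from 30579102 to 32025310, in part 4, with an r of -0.222. In bins of 10 Mb chromosome 9 ran between -0.670 in the first bin and -0.340 in bin 4, and chromosome 21 between -0.602 in bin 4 and -0.223 in bin 3.

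Gene by gene, 567 of the 699 chromosome 9 genes (81.1%) had a negative r with the chromosome 21 score, against 57.8% of the genes of the other autosomes, and 190 (27.2%) had an r below -0.3, against 5.24%. Of the 206 chromosome 21 genes 142 (68.9%) had a negative r with the chromosome 9 score, against 48.3% of the other genes, and 32 (15.5%) had an r below -0.3, against 6.09%. The pair was chosen on the means of these genes, so their excess over the other genes is part of that choice. Genes with an r below -0.3 made up 38.5% of part 1 of chromosome 9, the largest share on that chromosome, and 18.1% of part 4, the smallest. On chromosome 21 they made up 32.4% of part 5, with 11 of 34 genes, and 2.94% of part 3, with 1 of 34. Genes were also split by mean expression level into 3 groups of like size. The share of chromosome 9 genes with a negative r was 73.0% at low, 86.7% at middle and 83.7% at high level. On chromosome 21 it was 62.3% at low, 70.6% at middle and 73.9% at high level. Within their own chromosome 84.1% of the chromosome 9 genes and 73.8% of the chromosome 21 genes had a positive r with the score of the remaining genes, against 82.3% of the genes of the other autosomes.

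The opposition depended on expression level when scores were made from genes at or below and genes above the median level of each chromosome. The score of the low genes of chromosome 9 had an r of -0.068 with that of the low genes of chromosome 21, and the high genes of both had -0.171. Unlike levels gave the large values, with -0.713 between low genes of chromosome 9 and high genes of chromosome 21 and -0.644 between high genes of chromosome 9 and low genes of chromosome 21. On chromosome 21 itself the low and high genes had an r of -0.224 with each other, while those of chromosome 9 had 0.590. After the values were regressed on exon length, span and level within each library, like levels gave -0.542 for low and -0.752 for high genes, and the low and high genes of chromosome 21 had 0.463. The part of level in the opposition was not tested further.

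**Figure D4:**
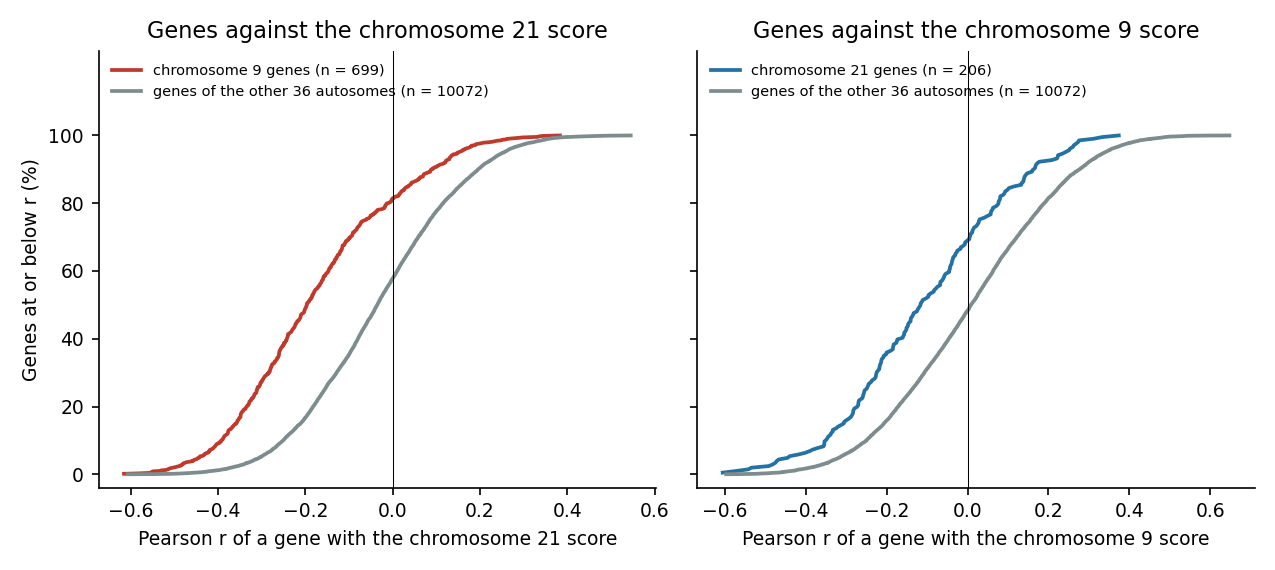
Share of genes (%) at or below each value of Pearson r over 62 libraries, for chromosome 9 genes with the chromosome 21 score (left) and chromosome 21 genes with the chromosome 9 score (right), with genes of the other 36 autosomes in grey. The coloured curves lie left of the grey ones, with 81.1% against 57.8% of genes below 0 on the left and 68.9% against 48.3% on the right.

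The chromosome 9 gene with the lowest r, -0.615, was ENSCAFG00000004925, from 4767743 to 4801235. Its log2 CPM was 7.52 in Sx 6, 7.36 in Sx 8, 7.20 in Sx 12, 7.28 in Sx 13 and 6.78 in untreated 13. The other 57 libraries ran from 4.99 to 7.47 with a median of 6.23, so all 5 lay above that median and only Sx 6 above all others. The span of the gene overlaps that of another gene of the table. Without strand, reads from any exons they share cannot be told apart, and shared exons were not looked for. The next gene was ENSCAFG00000004604, from 5600373 to 5654520, with an r of -0.578 and no overlap. Its log2 CPM was 5.07 in Sx 6, 5.31 in Sx 8, 5.48 in Sx 12, 5.49 in Sx 13 and 5.51 in untreated 13. The others ran from 1.92 to 5.71 with a median of 4.42, and the groups overlapped.

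On chromosome 21 the lowest r, -0.605, was that of ENSCAFG00000007573, from 33645140 to 33695062, in part 5. Its log2 CPM was 2.55 in Sx 6, 4.40 in Sx 8, 3.82 in Sx 12, 4.30 in Sx 13 and 4.63 in untreated 13. The others ran from 4.15 to 6.08 with a median of 5.26. Sx 6 and Sx 12 lay below all 57 others, and the lowest raw count among the 5 libraries was 16. ENSCAFG00000004486, from 13437925 to 13539616 in part 1, had an r of -0.572. Its log2 CPM was 7.75 in Sx 6, 7.54 in Sx 8, 7.82 in Sx 12, 8.41 in Sx 13 and 7.79 in untreated 13. The others ran from 7.63 to 9.49 with a median of 8.51, and all 5 libraries lay below that median. Both genes overlap another gene.

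By treatment label the 5 libraries were 4 of 13 Sx dogs, 0 of 9 SxRT, 0 of 3 RT, 0 of 7 steroid, 0 of 3 anti-epileptic and 1 of 27 untreated dogs. The labels were viewed together with the scores, so no test is given. The letter that starts a sample name goes with surgery. All 21 S names belong to surgical dogs, and Sx 1 is the only surgical dog among the 41 N names. The 4 Sx libraries have S names numbered 15, 16 and 22, and untreated 13 has an N name numbered 15. Surgery and whatever the letter stands for cannot be told apart.

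Group medians lay close together. The chromosome 9 score had a median of -0.01 in Sx, 0.02 in SxRT, -0.03 in RT, -0.08 in steroid, -0.05 in anti-epileptic and -0.07 in untreated dogs. The chromosome 21 score had a median of -0.04 in Sx, 0.05 in SxRT, 0.01 in RT, 0.05 in steroid, 0.08 in anti-epileptic and 0.04 in untreated dogs. The Sx libraries outside the 5 ran from -0.17 to 0.09 on chromosome 9 and from -0.08 to 0.06 on chromosome 21, within the ranges of the untreated dogs. Within groups Pearson's r was -0.797 in 13 Sx (rho -0.363), -0.590 in 9 SxRT (rho -0.433) and -0.632 in 27 untreated dogs (rho -0.452). In 7 steroid dogs it was -0.126 and rho was 0.107. By sign, chromosome 9 was below and chromosome 21 above 0 in 5 of these 7. In 1 the signs were the other way round, and in 1 they were alike. RT and anti-epileptic had 3 dogs each and were given no r. The Sx and untreated values include the far libraries, and all come from the scores that chose the pair. Within the sample names numbered 11 to 16 r was -0.724, and within those numbered 17 to 22 it was -0.687.

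**Figure D5:**
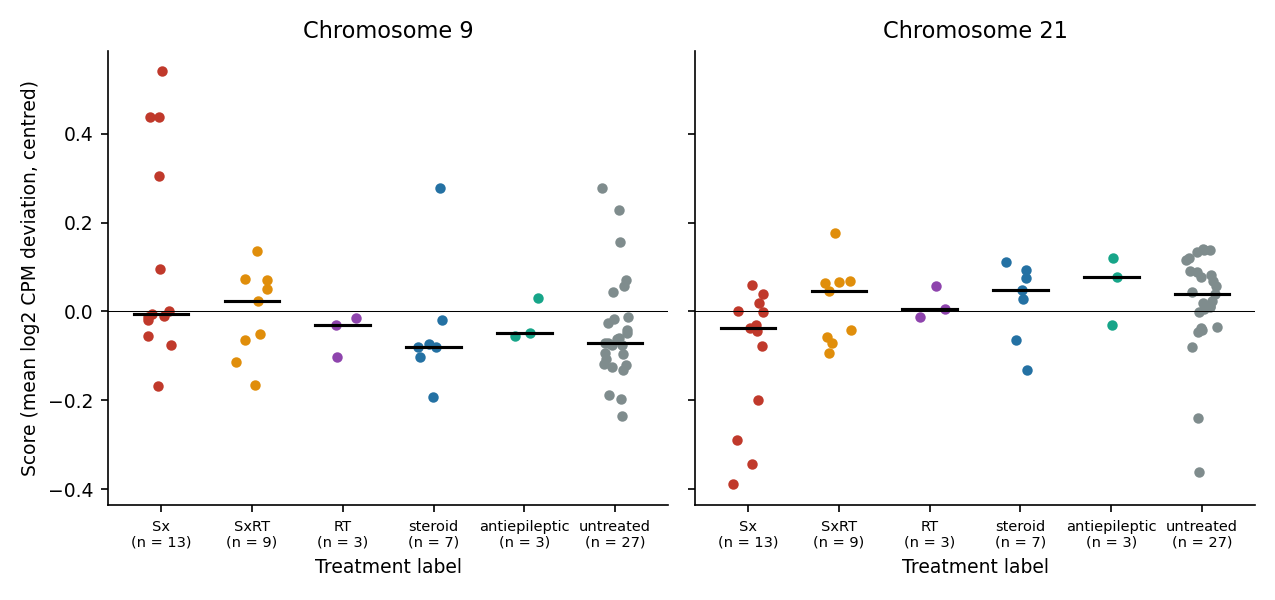
Chromosome 9 score (left) and chromosome 21 score (right), in log2 CPM deviation, of each library by treatment label, with black lines at group medians. In Sx 4 libraries stand above 0.3 on chromosome 9 and below -0.2 on chromosome 21, while the medians of all 6 groups lie within 0.1 of 0.

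Genes of both chromosomes were compared between treatments in edgeR fits over the whole table. In surgical dogs (Sx and SxRT, n = 22) against untreated dogs (n = 27), 84 members were higher and 110 lower among 1254 tested (edgeR quasi-likelihood test, Benjamini-Hochberg adjusted p under 0.05). On chromosome 9, 75 genes were higher (7.85% of 956) and 70 lower (7.32%). On chromosome 21, 9 were higher (3.02% of 298) and 40 lower (13.4%). Over all 18370 genes 6.37% were higher and 10.4% lower, 16.8% in all, close to the 15.2% of chromosome 9 and 16.4% of chromosome 21 called in either direction. At an unadjusted p under 0.05 there were 371 members, against 29.9% of all genes. The median log2 fold change was 0.08 on chromosome 9, -0.08 on chromosome 21 and -0.02 over all genes.

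The fit was also run without the 5 libraries. It then had fewer dogs, and the share of genes called fell over all genes as well. Without the 5 libraries 36 genes of chromosome 9 were higher (3.79%) and 75 lower (7.89%). On chromosome 21, 5 were higher and 32 lower. Over all genes in that fit 4.44% were higher and 8.57% lower. The part of the 5 libraries in the number of calls was not tested. Of the 194 members called with all libraries, 131 were called without the 5. The median log2 fold change was then -0.02 on chromosome 9 and -0.07 on chromosome 21. With the first principal component as a covariate 17 members were higher and 5 lower, against 0.838% higher and 0.724% lower over all genes. With the share of even counts as a covariate 13 were higher and 22 lower, against 1.42% and 2.58%. Within names numbered 11 to 16 edgeR called 0 members (142 of 1243 at an unadjusted p under 0.05), where it called 0 of all 18153 genes (2371 unadjusted). Within names 17 to 22 it called 3 of 1305, or 0.230%, against 0.364% of all 19503 genes. DESeq2 gave 81 higher and 134 lower members, against 6.46% and 12.7% of all genes. With limma voom, run with a quality weight per library, the split turned to 121 higher and 89 lower, against 8.60% and 7.49%. The part of these measures in the differences was not tested.

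The calls are also given by part, to be read against the 6.37% higher and 10.4% lower over all genes. On chromosome 9 part 1 had 17 higher and 7 lower genes of 172 tested, with a median log2 fold change of 0.20, and part 5 had 20 and 9 of 155, with 0.14. Part 2 had 14 higher and 15 lower of 155, part 3 10 and 13 of 176, part 4 5 and 13 of 152 and part 6 9 and 13 of 146. On chromosome 21 part 1 had 3 higher and 7 lower genes of 59, part 2 2 and 7 of 49, part 3 3 and 6 of 44 and part 4 1 and 0 of 48. Part 5 had 0 higher and 7 lower of 42 and part 6 0 and 13 of 56. The median log2 fold change on chromosome 21 ran from -0.23 in part 6 to 0.12 in part 3. Differences between the parts were not tested.

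Of the genes named by size, ENSCAFG00000023928, on chromosome 9 from 38948184 to 38950803, had log2 CPM values from 1.07 to 6.26 with a median of 3.32 in surgical dogs, against -1.16 to 4.23 with a median of 1.67 in untreated dogs. Its log2 fold change was 2.15 with an SE of 0.529 (edgeR, adjusted p 0.00345), and 20 of 22 surgical dogs lay above the untreated median. ENSCAFG00000045017, on chromosome 9 from 45850527 to 45854986, had a median of 4.19 (1.31 to 5.54) in surgical dogs and of 2.49 (-1.16 to 3.63) in untreated dogs. Its log2 fold change was 1.97 with an SE of 0.349 (edgeR, adjusted p 0.000175), again with 20 of 22 above the untreated median. Both overlap another gene, and the ranges of the groups overlapped. Counts of 0 were found in 4 untreated libraries for ENSCAFG00000023928 and in 2 for ENSCAFG00000045017, and in 0 surgical libraries for both.

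ENSCAFG00000004381, on chromosome 21 from 10996075 to 11493290, had a log2 fold change of -3.89 with an SE of 0.808 (edgeR, adjusted p 0.000783). Its log2 CPM had a median of 0.48 (-1.16 to 3.65) in surgical dogs and of 2.56 (-1.16 to 8.35) in untreated dogs, with a count of 0 in 4 surgical and 3 untreated libraries. With the first principal component as a covariate its log2 fold change was -0.13. ENSCAFG00000015621, on chromosome 9 from 20734450 to 20751274, had a log2 fold change of -3.37 with an SE of 0.646 (edgeR, adjusted p 0.000336). Its log2 CPM had a median of -0.18 (-1.16 to 2.04) in surgical dogs and of 2.46 (-1.16 to 5.42) in untreated dogs, and 0 of 22 surgical dogs lay above the untreated median. Its median raw count was 2 in surgical and 18 in untreated dogs, with a count of 0 in 9 surgical and 2 untreated libraries. The surgical values thus lay near the floor, where a count of 0 gave -1.16. That covariate moved its log2 fold change to -1.21. Over 13 alternative fits these 4 genes kept their sign and lost their call in 3, 1, 4 and 3 of them, in the order given.

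The genes named for the opposition were chosen on values that the 4 far Sx libraries weigh on, so their surgical fold changes are given with and without the 5 libraries and with no test. For ENSCAFG00000004925 the log2 fold change was 0.52 (SE 0.146) with all libraries and 0.36 (SE 0.142) without the 5. ENSCAFG00000004604 had 0.11 (SE 0.183) with all and -0.03 (SE 0.185) without. ENSCAFG00000007573 had -0.40 (SE 0.15) with all and -0.28 (SE 0.139) without. ENSCAFG00000004486 had -0.12 (SE 0.115) with all and -0.05 (SE 0.112) without.

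In steroid against untreated dogs 1 member was called, against 0.256% of all genes tested (47 of 18370, all higher), and 162 of 1254 members were past an unadjusted p of 0.05, against 11.0% of all genes. It is ENSCAFG00000004307, on chromosome 21 from 10162578 to 10253015, which overlaps another gene and is named here after its values were seen. Its log2 CPM ran from 5.13 to 8.57 with a median of 5.77 in steroid dogs and from 4.42 to 6.09 with a median of 5.45 in untreated dogs. Its log2 fold change was 1.15 with an SE of 0.270 (edgeR, adjusted p 0.0404). Without steroid 5, the library with 46.7% mitochondrial counts, its log2 fold change was 0.15 (edgeR adjusted p 0.941). DESeq2 called 13 members (1.04%, against 0.746% of all genes) and limma voom 37 (2.95%, against 3.52%).

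In SxRT against Sx dogs 0 members were called by edgeR, DESeq2 or limma voom. Over all genes edgeR called 0.0109%, DESeq2 0.212% and limma voom 0. At an edgeR unadjusted p under 0.05 there were 76 of 1254 members, against 5.11% of all genes. The median log2 fold change was -0.13 on chromosome 9 and 0.06 on chromosome 21, where all genes had -0.04. The Sx group holds 4 of the 5 libraries with the far values, and this comparison was not run without them. On chromosome 9 the median score was higher in SxRT (0.02) than in Sx (-0.01), unlike the fold change. On chromosome 21 it was 0.05 in SxRT and -0.04 in Sx. The part of the 4 libraries in these fold changes was not tested.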

How the data were processed

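The authors deposited raw counts per gene and the summed exon length of each gene. Per the file headers, reads were counted with featureCounts 2.0.4 over Ensembl release 100 exons (CanFam3.1), without regard to strand, and each read of a pair was counted, so a fragment mostly adds 2 counts and totals overstate precision. Counts of genes with near-identical copies are uncertain. STAR and DESeq2 are named in the submitters' processing notes. No version of either is given in these sources. Labels give 150 nt pairs from tissue archived between 2011 and 2022.

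Log2 CPM used TMM factors (0.556 to 1.24) and a prior count of 2 in edgeR 4.0.16 (R 4.3.3). All 62 libraries entered 1 quasi-likelihood fit with terms for the 6 treatments, for sex and for neutering (18370 genes, 1254 members), with Benjamini-Hochberg adjustment of the p-values over all genes. Alternatives used DESeq2 1.42.0 and limma 3.58.1, with voom and a quality weight per library. Scores used Python 3.11.15. The scores and the fits were tested on simulated data. Replicate numbers follow accession order and do not pair samples. Each library is a separate tumour by its labels. The members, tests and alternatives were chosen with earlier results of these data known, and 8 alternatives after the data were seen in more detail.

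Genes named by treatment passed an adjusted p of 0.05, reached a mean log2 CPM of 1 and had group medians at least 0.5 apart in the direction of the fold change. The 2 of largest fold change per direction were named, and for the opposition the 2 genes per chromosome of lowest r. No identifier matched the name table of UU_Cfam_GSD_1.0 (0 matches), so marker lists of cell types were not analysed.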

Additional observations from a re-analysis of the deposited data

Results flagged for a closer look

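The chromosome 9 score of steroid 5 was 0.278, far from the other 6 steroid dogs, whose next score was -0.02. Mitochondrial genes took 46.7% of the counts of this library, the highest share of all. The part of that share in the score was not tested. The check covered 12 groups of values, the chromosome scores and the log2 CPM of the 4 genes named for the opposition in steroid and in SxRT dogs. Chance flags about 1 in 20 groups.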

How the results depend on the processing

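The r of the whole chromosomes was below 0 in all alternatives run, but close to 0 without the subtraction of the library median, where the median r of the part pairs was 0.028. It moved most in 3 alternatives. Pearson's r of -0.704 became -0.045 without the library median, -0.503 as Spearman's rho and -0.395 without the 5 libraries, and leaving out 1 library at a time gave -0.741 (without steroid 2) to -0.658. Without the 2 libraries farthest on chromosome 9 r was -0.657. Outside the 3 alternatives r lay between -0.787 (surgical dogs only) and -0.562 (centred on the mean over autosomal genes). The 33 negative part pairs became 15 without the library median, the 5 libraries became 2 at a threshold of 0.3, and the 0 libraries with the reverse pattern became 5 at 0.1. The 194 surgical calls became 35 with the share of even counts and 22 with the first principal component as covariates, 0 within names 11 to 16 and 3 within names 17 to 22. The single steroid call became 5 without a filter (0.319%, against 0.578% of all genes) and 13 with DESeq2 (1.04%, against 0.746%). It became 37 with limma voom (2.95%, against 3.52%) and 7 without sex and neuter status (0.558%, against 0.593%). With only the groups compared it became 0, against 0.00655%. When 1 steroid dog was left out it became 0 (without steroid 5, against 0.0109%) to 8 (without steroid 6, 0.637% against 0.772%). The cause was not tested. SxRT against Sx gave 0 members in all 15 alternatives. No paired analysis was possible because replicate numbers were given in accession order and pair no samples. Counts of reads in pairs limit precision, and chromosome 21 scores rest on 206 genes.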
